A study of Homo sapiens with 18 samples.

Results

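The 4 signalling receptors for fibroblast growth factors (FGFs), the decoy-like receptor FGFRL1, the ligands FGF1, FGF2 and FGF5, and the FGF carrier FGFBP1 were followed through 18 mRNA sequencing libraries of head and neck squamous cell carcinoma (HNSCC) lines. Members were the rows of the count table carrying these gene names, 9 of 19901 genes, and all 9 were among the 15475 genes that passed the filter on low counts. Detroit 562 was derived from a metastasis of a pharyngeal tumor, FaDu from a primary tumor of the hypopharynx and SCC-9 from a primary tumor of the tongue. From each line there were 3 libraries of untreated cells (control) and 3 of cells given 50 ng/mL hepatocyte growth factor (HGF), the ligand of the receptor tyrosine kinase Met. Treatment lasted 16 h in the sample records, whereas the series record gives 48 h. Detroit 562 and FaDu were grown in one medium and SCC-9 in another that held hydrocortisone, so the medium and the line cannot be told apart. Each line is a single established culture. The study's methods state that the experiment was repeated, but no record ties a library to a repeat. If the 3 libraries of a group are those repeats, p values measure the spread between repeats within a line. Fits of all 18 libraries pool that spread over the 3 lines.

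FGFs act outside the cell. They bind FGFR1 to FGFR4 together with heparan sulfate, the receptor dimerizes and phosphorylates itself, and the adaptor FRS2 links it to the RAS-ERK cascade. Epithelia make the IIIb splice form of FGFR2, which answers to stromal ligands such as FGF7, and they use FGFR3 as well, while FGFR1 is better known from mesenchymal cells. FGFRL1 binds FGFs but lacks the kinase. FGF1 and FGF2 have no signal peptide and leave the cell by an unconventional route, FGF5 is secreted, and FGFBP1 releases FGFs that are stored on matrix heparan sulfate. The counts cover whole genes and do not separate the IIIb and IIIc forms.

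Of the members, 5 lie on chromosome 4 (FGFR3, FGFRL1, FGFBP1, FGF2 and FGF5), FGFR4 and FGF1 lie on chromosome 5 and FGFR2 lies on chromosome 10. RefSeq promoter windows were searched for 8 members with 17 start sites in the GRCh38.p14 build, 250 bases before each start, on both strands, for a GC box (GGGCGG), an AP-1 site (TGANTCA) and a TATA box (TATAAA). Over all 35116 windows, a GC box was found in 42.6%, an AP-1 site in 6.57% and a TATA box in 10.7%. The windows of FGFR2 and FGFR3, the receptors whose counts moved down together, and of FGFBP1, the most abundant member, are shown 5′ to 3′ with GC boxes in capitals.
FGFR2 (chr10:121598445-121598694, minus strand, before the most upstream of its 5 starts): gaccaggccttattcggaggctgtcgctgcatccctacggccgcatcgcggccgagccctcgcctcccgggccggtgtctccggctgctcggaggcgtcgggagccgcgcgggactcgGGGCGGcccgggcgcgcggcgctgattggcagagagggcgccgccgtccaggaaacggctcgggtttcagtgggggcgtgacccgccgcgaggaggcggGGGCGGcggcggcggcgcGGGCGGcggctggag
FGFR3 (chr4:1793043-1793292, plus strand): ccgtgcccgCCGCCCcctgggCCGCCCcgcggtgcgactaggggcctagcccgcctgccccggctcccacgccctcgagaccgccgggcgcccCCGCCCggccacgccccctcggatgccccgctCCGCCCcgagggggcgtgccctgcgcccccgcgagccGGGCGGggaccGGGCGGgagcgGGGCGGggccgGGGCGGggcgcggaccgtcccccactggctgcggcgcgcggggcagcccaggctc
FGFBP1 (chr4:15938741-15938990, minus strand): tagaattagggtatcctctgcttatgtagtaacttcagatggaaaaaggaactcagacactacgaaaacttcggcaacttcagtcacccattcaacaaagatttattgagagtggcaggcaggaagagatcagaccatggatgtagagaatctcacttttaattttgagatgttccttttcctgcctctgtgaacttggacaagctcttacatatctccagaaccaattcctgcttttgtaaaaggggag
The FGFR3 window held 8 GC boxes in 86.8% G or C bases, and the FGFR2 window shown held 3 in 78.4%. Windows before the downstream starts of FGFR2 held 0 or 1 GC box in 42.8% to 50% G or C bases. Which start was used cannot be read from the counts. GC boxes were not particular to these receptors, as FGFR4, which was not called, held 7 before its upstream start and FGFRL1, which rose, held 4. All 250 bases of the FGFRL1 window lay in annotated exons of that gene. None of the 3 motifs was found in the FGFBP1 window, where G or C made up 40.8% of bases. Of the 17 windows, 1 held an AP-1 site, before a downstream start of FGF1, and 1 held TATA boxes, before a downstream start of FGF5. A match describes the letters and is no evidence of binding.

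Total counts per library ranged from 35304770 to 44003970. Replicate 3 of Detroit 562 and of FaDu stood apart in several members, with the lowest FGFR3 and the highest FGF2 of its group, treated or not, and each call of a member that changed without the 6 libraries numbered 3 is given both ways. All 9 squamous epithelial markers were above 1 CPM (counts scaled to the library total times its TMM factor) in every group. Their summed levels ran from 2300 to 11800 CPM. Markers of other cells were lower, between 3.7 and 140 CPM for the 9 fibroblast genes, between 0.639 and 8.34 CPM for the 4 endothelial genes and between 0.0742 and 10 CPM for the 4 leukocyte genes. In Detroit 562 the fibroblast sum was 30.3 to 54.6 CPM in control and 15.4 to 27.8 CPM with HGF, from COL1A1 and COL1A2 in the main, as the other 7 genes had at most 17 counts in any of its libraries and PDGFRB had 0. The squamous sum there was 3340 to 4810 CPM in control and 2300 to 3550 CPM with HGF. Of the 9 squamous genes, 2 were called down there, KRT5 and CDH1, beside 11.7% of all genes, and none was called up. The log2 fold change was above 0 for 3, KRT6A (0.01), KRT17 (0.10) and EPCAM (0.21). The part of these shifts in the results on FGF genes was not tested.

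The lines differed in these genes before any treatment. Per kilobase of the principal transcript, FGFBP1 was the most abundant member in each line, at 362 ± 17.3 CPM per kilobase (SD, n = 3) in untreated Detroit 562, 38.3 ± 1.13 in FaDu and 55.5 ± 4.48 in SCC-9. In Detroit 562 it was followed by FGFR3 at 43.9 ± 14.8 CPM per kilobase, FGFR2 at 20.2 ± 3.6, FGFRL1 at 6.45 ± 0.558 and FGF2 at 3.07 ± 0.664. FGFR4 at 1.22 ± 0.138 and FGFR1 at 1.01 ± 0.233 came next and overlapped between libraries, and FGF5 at 0.142 ± 0.00796 and FGF1 at 0.0556 ± 0.0107 were the lowest. Divided by the union of all exons, FGFR2 came out at 4.97 CPM per kilobase, just below FGFRL1 at 5.07, since the 2 lengths differ most for FGFR2. Both lengths are exonic, whereas the counts include intronic reads. The counted extent was 120125 bases for FGFR2 and 71529 for FGF2, against 3172 for FGFBP1. Intronic reads could lift long genes on this scale, so the order between genes is approximate in each line.

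In untreated FaDu the same scale gave FGFR3 22.6 ± 6.49, FGFR2 7.35 ± 0.794, FGFR4 3.25 ± 0.37, FGF2 2.84 ± 1.39 and FGFRL1 2.52 ± 0.173 CPM per kilobase. The libraries of FGF2 overlapped those of FGFR4 and of FGFRL1, so the order of these genes was not resolved. FGFR1 at 0.371 ± 0.0689 and FGF1 at 0.265 ± 0.102 also overlapped, and FGF5 was at 0.00887 ± 0.00884 CPM per kilobase. In SCC-9 FGFRL1 at 4.79 ± 0.284 CPM per kilobase stood above FGFR3 at 2.95 ± 0.601, and the libraries did not overlap. FGFR2 at 0.719 ± 0.16 and FGFR4 at 0.683 ± 0.0876 overlapped, as did FGF5 at 0.162 ± 0.0438 with FGF2 at 0.136 ± 0.00864 and FGFR1 at 0.0445 ± 0.0144 with FGF1 at 0.0389 ± 0.0166. SCC-9 had the lowest mean untreated level of each of FGFR1 to FGFR4, FGF1 and FGF2, although its libraries overlapped those of Detroit 562 for FGF1.

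Between untreated lines, 8 of 9 members differed between Detroit 562 and FaDu, beside 61% of all genes called, where a call needed a log2 difference of 0.4 or more in size with an adjusted p under 0.1. Between Detroit 562 and SCC-9, 7 members differed beside 65.4% of all genes, and between FaDu and SCC-9 all 9 differed beside 64.2%. The share of members was above the share of all genes in each contrast, but such differences were the rule for genes in general. FGFR1 was higher in Detroit 562 than in SCC-9 by 4.49 on the log2 scale (SE 0.32), FGFR2 by 4.82 (SE 0.223), FGFR3 by 3.90 (SE 0.388) and FGF2 by 4.49 (SE 0.373), with adjusted p of at most 9.07e-08 in edgeR's quasi-likelihood test. FGFR4 and FGF1 ran the other way between the first lines, lower in Detroit 562 than in FaDu. Their log2 differences were -1.41 (SE 0.183, adjusted p = 2.62e-06) and -2.24 (SE 0.378, adjusted p = 4.77e-05). FGF2 did not pass the test between Detroit 562 and FaDu, with a log2 difference of 0.11 and a 95% confidence interval from -0.50 to 0.72. This rested on control replicate 3 of FaDu, with 1180 normalised counts of FGF2 against 571 and 516 in the others. Without that library the difference was 0.59 (adjusted p = 0.0488), and without all libraries numbered 3 it was 0.40 (adjusted p = 0.0286), so that FGF2 was called in both fits and all 9 members then differed. FGF1 and FGF5 did not pass between Detroit 562 and SCC-9, at 0.49 (from -0.55 to 1.53) and -0.19 (from -1.10 to 0.73). FGFRL1 was at the edge there, with a log2 difference of 0.43 (adjusted p = 0.00193) that fell below the minimum of 0.4 without the libraries numbered 3 (0.34), without control replicate 3 of Detroit 562 (0.37) or without that of SCC-9 (just under 0.40), which left 6 members called.

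HGF changed 6 of 9 members in Detroit 562. FGFR1, FGFRL1, FGF1 and FGF5 rose, beside 6.16% of all genes that rose, and FGFR2 and FGFR3 fell, beside 11.7% that fell. The median log2 fold change of the members was 0.37, against -0.01 over all genes tested. DESeq2 called 6 members as well.

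FGFR1 had 203, 196 and 291 normalised counts in the control libraries of Detroit 562 and 528, 435 and 792 in the HGF-treated ones. The lowest treated library lay above the highest control, and the increase was 2.6-, 2.22- and 2.72-fold within the same-numbered libraries. The log2 fold change was 1.35 (SE 0.228, adjusted p = 0.00141), which ranked FGFR1 at 92 among the 954 genes that rose. When any library of Detroit 562 was left out, the log2 fold change stayed between 1.07 and 1.55, with adjusted p of at most 0.0138. A processed pseudogene, RPS20P22, lies within FGFR1 on its strand, and reads from it would be counted for FGFR1.

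FGFR3 had 9462, 8526 and 4661 normalised counts in control and 4512, 4036 and 1749 in HGF-treated Detroit 562. Groups did not overlap, although control replicate 3 lay close to treated replicate 1, and FGFR3 dropped in each same-numbered comparison, to 0.477, 0.473 and 0.375 of control. It fell by 1.14 on the log2 scale (SE 0.345, adjusted p = 0.025), or 2.2-fold. Without control replicate 1 the log2 fold change was -0.94 and the call was lost (adjusted p = 0.12), while without the libraries numbered 3 it was -1.07 (adjusted p = 0.000933).

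FGFR2 had 4254, 3975 and 2987 normalised counts in control and 2069, 2490 and 1807 in HGF-treated Detroit 562. Every treated library was below every control. It fell by 0.82 on the log2 scale (SE 0.182, adjusted p = 0.00535), or 1.76-fold, and between -0.95 and -0.71 with any library left out. FGFRL1, the receptor without a kinase, had 802, 885 and 954 normalised counts in control and 1319, 1260 and 1077 with HGF, with no overlap, and rose by 0.47 on the log2 scale (SE 0.109, adjusted p = 0.00654). FGFR4 had 154, 166 and 132 against 218, 173 and 133 normalised counts, the groups overlapped, and the log2 difference of 0.21 (95% confidence interval from -0.18 to 0.61) did not pass the test.

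**Figure D1:**
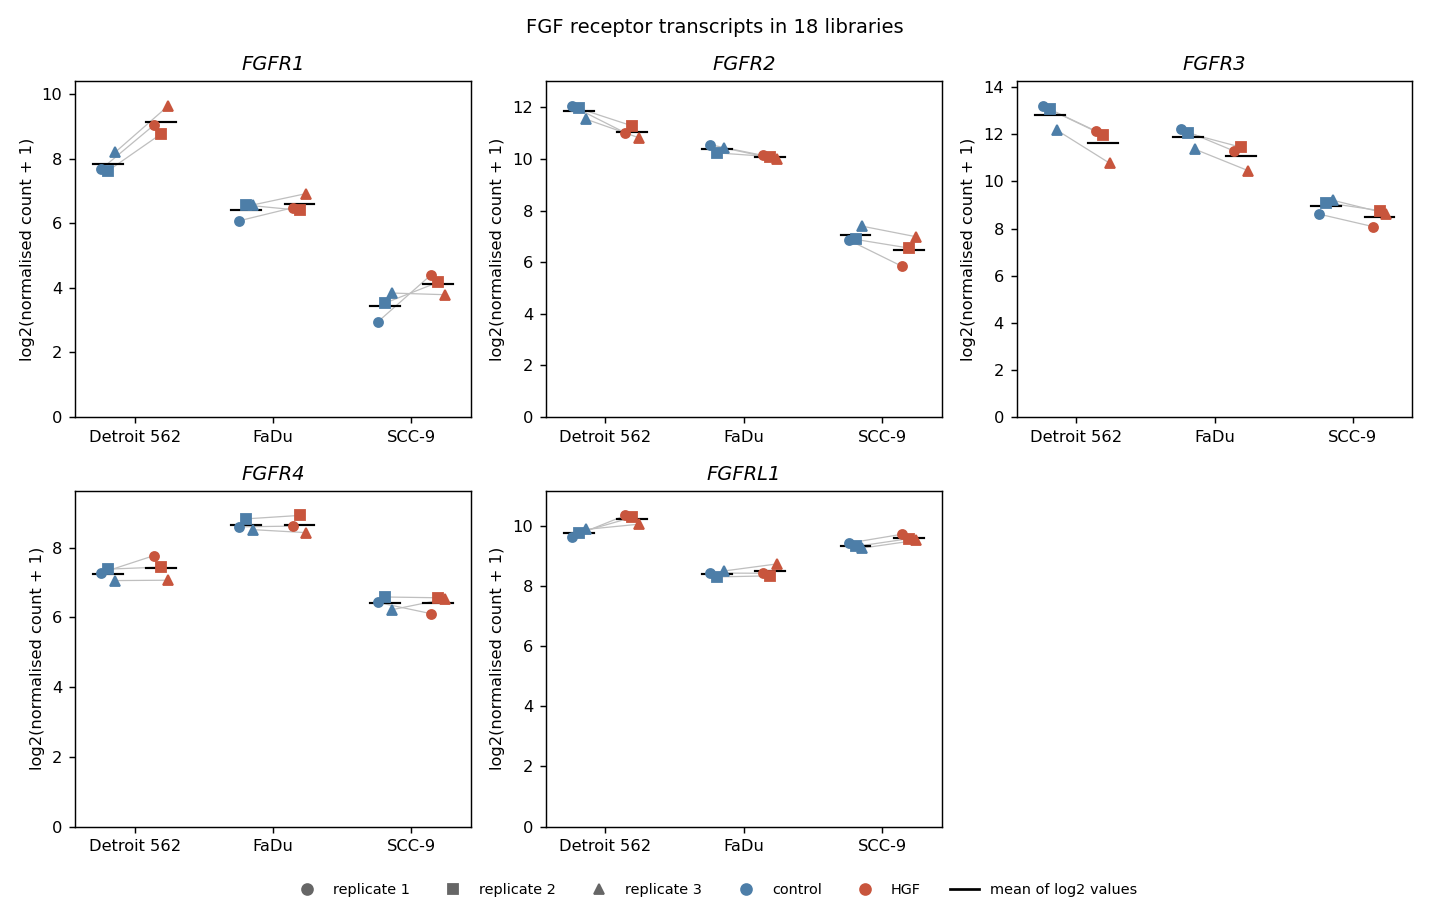
Normalised counts of the 5 FGF receptor genes in all 18 libraries, as log2(normalised count + 1) by cell line. Symbols mark replicates 1 to 3, colours mark control and HGF, grey lines join same-numbered libraries and bars are means of the log2 values. In Detroit 562 FGFR1 rose from between 196 and 291 to between 435 and 792 normalised counts, while FGFR2 and FGFR3 fell.

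In FaDu no member passed the test, where 0.0258% of all genes rose and 0% fell. At an unadjusted p below 0.05 there were 2 members (FGFR3 and FGF1) and 1247 genes, and DESeq2 called 0 members and 65 genes. With the replicate number as a block, FGFR3 and FGF1 were called down, beside 3.6% of all genes down and 2% up. FGFR3 had 4796, 4244 and 2645 normalised counts in control and 2503, 2801 and 1408 with HGF, overlapping only because control replicate 3 was below treated replicate 2. Its log2 difference was -0.80 (SE 0.344, adjusted p = 0.597), and -0.81 with an adjusted p of 2.98e-05 in the blocked fit. It was also called without the libraries numbered 3, at -0.76 (adjusted p = 0.0761). FGFR2 had 1497, 1204 and 1375 against 1123, 1088 and 1013 normalised counts, without overlap, and a log2 difference of -0.34 (adjusted p = 0.641, 0.02 with the block), which is under the minimum of 0.4 in either fit. FGFR1 had 66.5, 93.4 and 93.9 against 88.1, 83.5 and 120 normalised counts, with a log2 difference of 0.20 (95% confidence interval from -0.33 to 0.73).

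In SCC-9 no member passed the test either, and 0% of all genes rose or fell in edgeR. At an unadjusted p below 0.05 there were 3 members (FGFR2, FGFRL1 and FGF1) and 641 genes, and DESeq2 called 0 members and 19 genes. In the blocked fit FGFR2 and FGFR3 were called down, beside 1.41% of all genes down and 0.562% up. FGFR3 had 390, 546 and 586 normalised counts in control and 271, 434 and 398 with HGF, lower in all 3 same-numbered comparisons, with a log2 difference of -0.46 (SE 0.372, adjusted p = 1) and of -0.47 with the block (adjusted p = 0.0152). FGFR2 had 115, 117 and 167 against 56.4, 92.6 and 126 normalised counts, with a log2 difference of -0.54 (SE 0.241, adjusted p = 1) and of -0.55 with the block (adjusted p = 0.0702). FGFR1 was near the bottom of the range, with 7, 11 and 13 raw counts in control and 21, 18 and 13 with HGF, and its log2 difference of 0.72 had a 95% confidence interval from -0.15 to 1.58.

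Averaged over the 3 lines, FGFR1 and FGF1 rose, beside 2.02% of all genes, and FGFR2 and FGFR3 fell, beside 4.88%. The mean log2 fold change was 0.75 for FGFR1 (SE 0.177, adjusted p = 0.0109), 0.66 for FGF1 (SE 0.229, adjusted p = 0.0526), -0.56 for FGFR2 (SE 0.118, adjusted p = 0.00653) and -0.80 for FGFR3 (SE 0.204, adjusted p = 0.0151). FGFRL1 passed the adjusted p at 0.01, but its mean of 0.28 was below the minimum fold change. The average of FGF1 joins opposite directions, as its log2 difference was 1.60 in Detroit 562, 1.25 in SCC-9 and -0.87 in FaDu. Its call was lost, leaving 3 members, without control replicate 1 of Detroit 562 (0.61, adjusted p = 0.113), HGF replicate 3 of Detroit 562 (0.58, 0.102), control replicate 2 of SCC-9 (0.59, 0.108) or HGF replicate 3 of SCC-9 (0.54, 0.116). Without the libraries numbered 3 it was 0.37 (adjusted p = 0.268). This average shares its Detroit 562 libraries with the contrast above.

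Within a library the ratio of FGFR1 to FGFR3 does not depend on normalisation. There were 46.6, 43.5 and 16 FGFR3 reads for each FGFR1 read in the control libraries of Detroit 562 and 8.53, 9.27 and 2.21 in the treated ones. The log2 ratio was higher with HGF by 2.51, a 5.71-fold shift, and by 2.45, 2.23 and 2.86 in the same-numbered libraries (SD 0.319). The 2 groups did not overlap, and the two-sided exact permutation test gave p = 0.1, the smallest that 3 libraries against 3 allow.

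In FaDu there were 71.7, 45.2 and 28 FGFR3 reads per FGFR1 read in control and 28.3, 33.4 and 11.7 with HGF, so that control replicate 3 reached into the treated range. The log2 ratio differed by 1.01 (exact permutation p = 0.3), and by 1.34, 0.44 and 1.26 in the same-numbered libraries. In SCC-9 the numbers were 54.5, 50 and 42.6 against 13.2, 24.9 and 30, without overlap, and the log2 ratio differed by 1.18 (exact permutation p = 0.1), with 2.04, 1.00 and 0.51 in the same-numbered libraries. All 9 same-numbered comparisons shifted toward FGFR1, but FGFR3 kept the larger count in every one of the 18 libraries.

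Per kilobase, FGFR3 made up 65.2% ± 5.06 (SD, n = 3) of the summed FGFR1 to FGFR4 level in control and 54.3% ± 11.4 in HGF-treated Detroit 562. The share of FGFR1 was 1.69% ± 0.958 in control and 8.18% ± 5.23 with HGF, the latter drawn up by replicate 3 at 14.2%, with 5.59% and 4.74% in the others. FGFR2 kept 31.2% ± 3.71 and 33.4% ± 6.47. The FGFR3 shares overlapped, as control replicate 3 was at 59.4% and HGF replicate 1 at 63.2%. Divided by the union of exons, the FGFR1 share was 0.849% in control and 4.63% with HGF. On that scale FGFR2 was at 11.4% and 13.6%, and FGFR3 at 85.9% and 77.5%. The size of each share thus depends on the length used, most of all for FGFR2, and intronic reads are included.

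The summed level of FGFR1 to FGFR4 was 66.3 ± 18.3 CPM per kilobase (SD, n = 3) in control Detroit 562 and 35.4 ± 9.48 after HGF. For FaDu the sums were 33.6 ± 6.76 and 22.5 ± 4.95, and for SCC-9 they were 4.4 ± 0.704 and 3.39 ± 0.752. It was lower with HGF in all 3 same-numbered comparisons of each line, with a log2 difference of -0.91 in Detroit 562 (exact permutation p = 0.1), -0.58 in FaDu (exact permutation p = 0.2) and -0.38 in SCC-9 (exact permutation p = 0.3). Since FGFR3 and FGFR2 supplied most of the sum, the added FGFR1 reads did not make up for theirs.

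**Figure D2:**
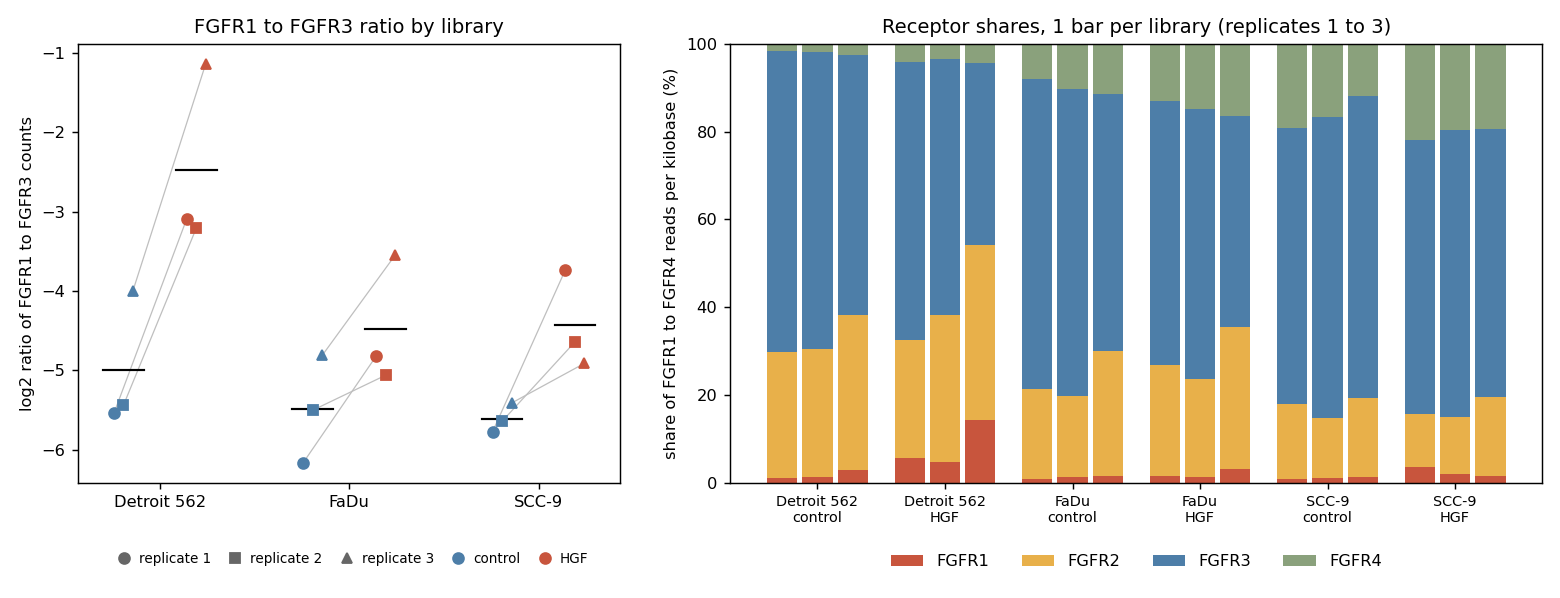
Left, log2 ratio of FGFR1 to FGFR3 counts in each library by cell line, with grey lines between same-numbered libraries and bars at the group means. Right, share of each receptor in the summed reads per kilobase of FGFR1 to FGFR4, in percent, with 1 bar per library. The ratio was higher with HGF in all same-numbered comparisons, and the largest FGFR1 share was 14.2%, in HGF replicate 3 of Detroit 562.

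Among the ligands FGF2 was the most abundant per kilobase in Detroit 562 and FaDu, whereas FGF1 and FGF5 had under 100 counts in each library. FGF2 had 772, 665 and 1010 normalised counts in control and 987, 970 and 1201 in HGF-treated Detroit 562. Each treated library was above the same-numbered control, but the groups overlapped through control replicate 3, and the log2 difference of 0.37 (SE 0.286, adjusted p = 0.37) did not pass. It was 0.38 with the block (adjusted p = 0.00447), just under the minimum of 0.4, and 0.45 without the libraries numbered 3, where it was called (adjusted p = 0.0387). DESeq2 did not call it (0.36, adjusted p = 0.385). Nor was it called when any single library of Detroit 562 was left out (0.24 to 0.55, adjusted p from 0.209 to 0.659). In FaDu replicate 3 carried 1180 normalised counts of FGF2 in control and 1171 with HGF, against 516 to 682 in the other libraries. The log2 difference was 0.16 there (95% confidence interval from -0.45 to 0.76) and 0.06 in SCC-9 (from -0.91 to 1.02), where only 21 to 51 raw counts were found. A processed pseudogene of 348 bases lies within FGF2 on its strand, and reads from it would be counted for FGF2.

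FGF1 had 7, 9 and 8 raw counts in control and 19, 21 and 28 in HGF-treated Detroit 562, with no overlap. It rose by 1.60 on the log2 scale (SE 0.401, adjusted p = 0.00967), or 3.03-fold, and between 1.35 and 1.79 when any library was left out. In FaDu the direction was the opposite. There FGF1 had 55, 44 and 24 raw counts in control and 25, 22 and 20 with HGF, which overlapped through control replicate 3, and the log2 difference was -0.87 (SE 0.326, adjusted p = 0.557). It was called with the block at -0.85 (adjusted p = 0.052). In SCC-9 FGF1 had 9, 4 and 5 raw counts in control and 11, 12 and 21 with HGF, with no overlap and a log2 difference of 1.25 (SE 0.446, adjusted p = 1).

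FGF5 had 33, 26 and 29 raw counts in control and 61, 48 and 76 in HGF-treated Detroit 562, again without overlap. It rose by 1.19 on the log2 scale (SE 0.416, adjusted p = 0.0465). This call was lost without control replicate 1 (adjusted p = 0.133), control replicate 2 (0.135) or HGF replicate 3 (0.168), and without the libraries numbered 3 (0.114), with log2 fold changes from 0.93 to 1.21. In FaDu FGF5 was nearly absent, with 2, 0 and 4 raw counts in control and 0, 7 and 0 with HGF, and nothing can be read from its fold change. In SCC-9 it had 47, 29 and 30 against 59, 42 and 44 raw counts, higher in each same-numbered comparison, with a log2 difference of 0.43 (SE 0.414, adjusted p = 1). FGF5 overlaps the gene listed as C4orf22 by 961 bases on the same strand, and a read there was counted for both.

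FGFBP1 had 20377, 19712 and 18531 normalised counts in control and 17641, 16317 and 12936 in HGF-treated Detroit 562. All treated libraries were below all controls, but the log2 difference of -0.32 (SE 0.109, adjusted p = 0.0402) was under the minimum fold change, so FGFBP1 was not called. With any library of Detroit 562 left out it ran from -0.42 to -0.20, and only without HGF replicate 1 was the minimum reached (adjusted p = 0.0199). The adjusted p rose above 0.1 without control replicate 1 (0.144), control replicate 2 (0.106) or HGF replicate 3 (0.187). The 2 other lines gave 0.16 (95% confidence interval from -0.08 to 0.39) in FaDu and -0.08 (from -0.32 to 0.15) in SCC-9.

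**Figure D3:**
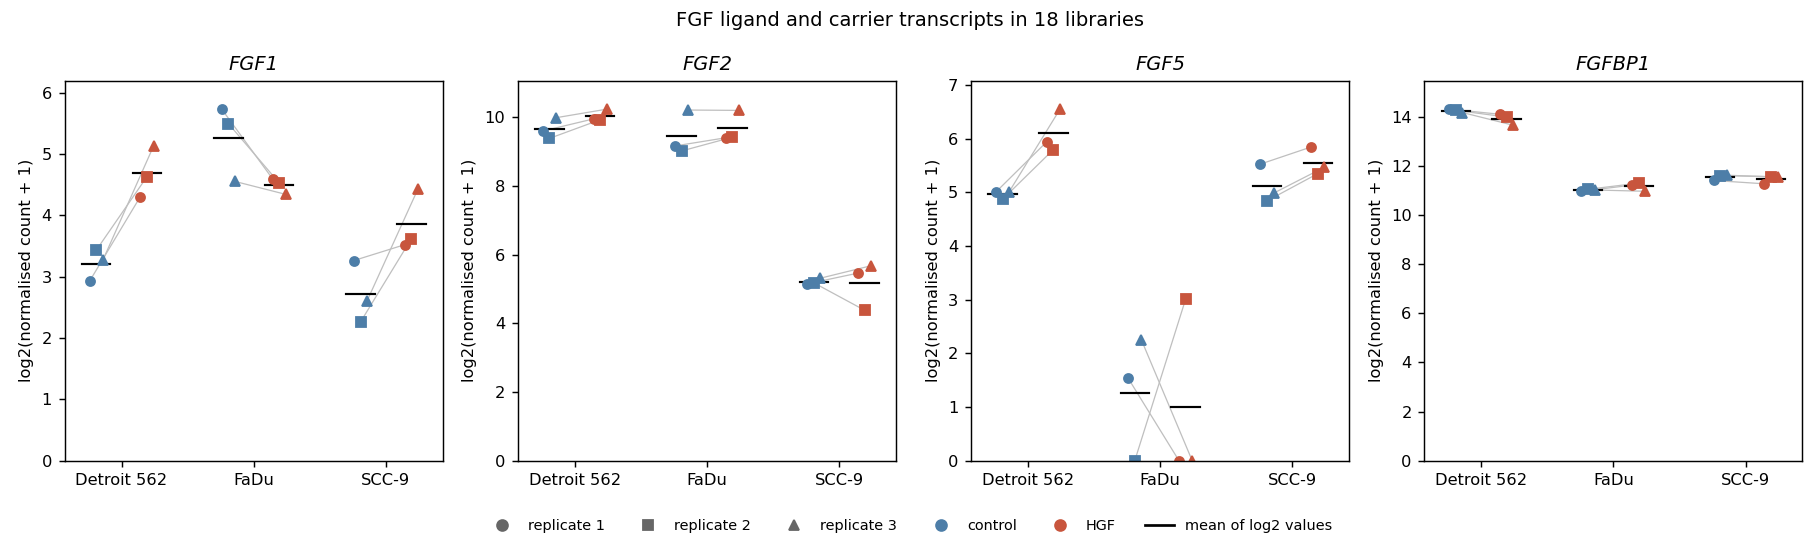
Normalised counts of FGF1, FGF2, FGF5 and the carrier FGFBP1 in all 18 libraries, as log2(normalised count + 1), with symbols, colours and lines as in the plot of receptors. FGF1 rose in Detroit 562 and ran the other way in FaDu, and FGF5 had 0 counts in 3 of the 6 FaDu libraries.

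Whether the response differed between lines was tested with interaction terms. Between Detroit 562 and FaDu, FGF1 passed, with a difference of responses of 2.47 on the log2 scale (SE 0.517, adjusted p = 0.0865), as did 0.239% of all genes. This call was lost in 10 of the 12 fits that each left out a library of these lines (log2 from 2.22 to 2.76, adjusted p of at most 0.319), where only those without control replicate 3 of Detroit 562 or of FaDu kept it, and also when only genes with at least 50 counts in 3 libraries were kept or only these lines were fitted. FGFR1 had a difference of 1.15 (SE 0.339, adjusted p = 0.226) and was called by DESeq2 (adjusted p = 0.0983). It was also called without control replicate 3 of Detroit 562, at 1.35 (adjusted p = 0.0709). Without the libraries numbered 3, FGFR1 (adjusted p = 0.0854) and FGFRL1 (log2 difference of 0.59, adjusted p = 0.092) were called beside FGF1. With the replicate block, 6 members passed beside 19.1% of all genes, namely FGFR1 (1.13), FGFR2 (-0.48), FGFR3 (-0.37), FGFRL1 (0.38), FGF1 (2.44) and FGFBP1 (-0.49).

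Between Detroit 562 and SCC-9 no member passed, beside 0.924% of all genes, with 0 members at an unadjusted p below 0.05 in edgeR and 0 by DESeq2. With the block, 2 passed beside 26.9%, FGFR3 at -0.71 (adjusted p = 0.00127) and FGFBP1 at -0.25 (adjusted p = 0.0676). Between FaDu and SCC-9 no member passed, beside 0% of all genes, with 1 member at an unadjusted p below 0.05 in edgeR, FGF1 at -2.13, and 0 by DESeq2. With the block FGF1 passed there at -2.09 (adjusted p = 0.0744), beside 1.32%. For FGFR1 the difference of the response in Detroit 562 from that in SCC-9 was 0.63, with a 95% confidence interval from -0.39 to 1.65, so the larger call number in Detroit 562 does not show that its FGFR1 response was larger than in SCC-9. These contrasts share libraries and are not independent of each other.

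**Figure D4:**
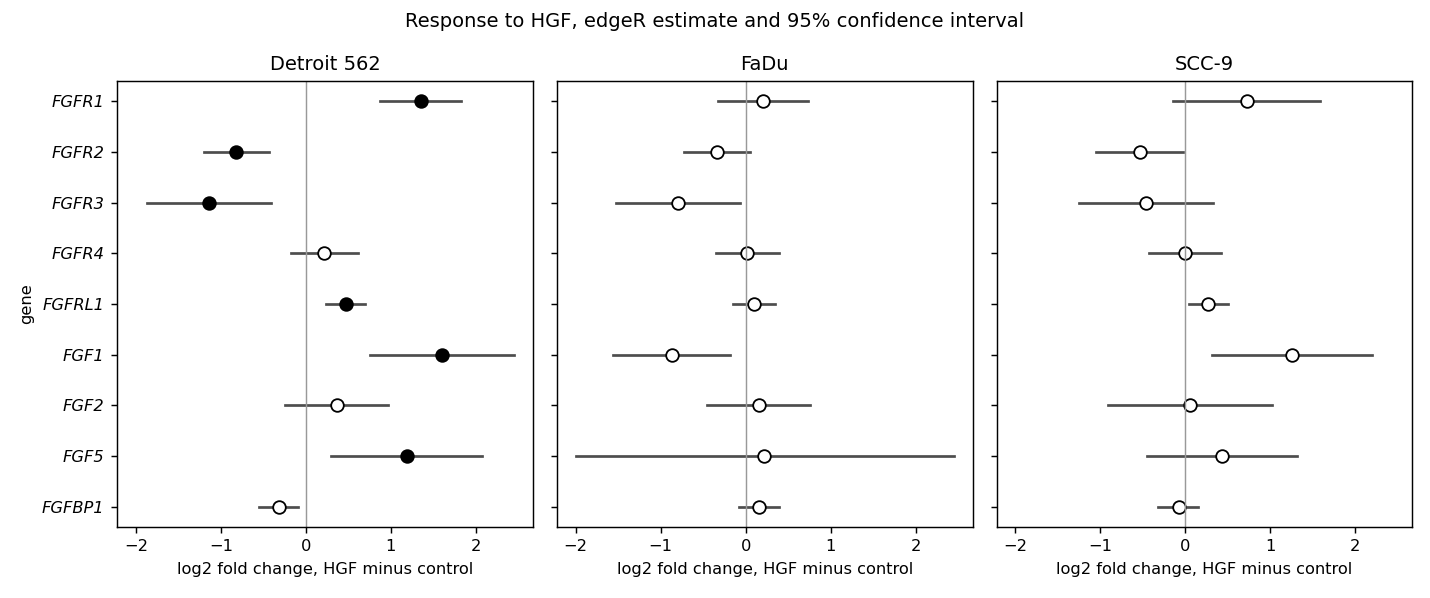
Log2 fold change of each member, HGF minus control, in each line, with the edgeR estimate as a point and its 95% confidence interval as a line. Filled points passed both thresholds, as 6 members did in Detroit 562 and none in the other lines. FGF1 lies at 1.60 in Detroit 562 and at -0.87 in FaDu.

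The counts of other genes of the pathway stand beside 6.16% of all genes that rose and 11.7% that fell in Detroit 562, where the median over all genes was -0.01 on the log2 scale. Of 15 other secreted FGFs, 6 passed the filter and none was called in any line, except FGF19 in FaDu with the block (log2 difference of -1.04, adjusted p = 0.0541). FGF6 was found in Detroit 562, at 45.4 ± 3.44 normalised counts (SD, n = 3) in control. FGF4, an embryonic ligand and a neighbour of CCND1, had 63 to 155 raw counts in FaDu and at most 4 elsewhere, and FGF19, the next gene, had 13 to 79 in FaDu. FGF18 was present in all lines, with 15 to 68 raw counts, and so was FGF7, the main ligand of the epithelial form of FGFR2, with 11 to 34. Of 4 intracellular FGF homologous factors, which do not activate the receptors, FGF13 fell in Detroit 562 by 0.78 on the log2 scale (SE 0.156, adjusted p = 0.00331).

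Among 9 other FGF-binding proteins and co-receptors, 5 were tested, none rose and KL and FLRT3 fell in Detroit 562, beside 11.7% of all genes that fell, with a median of 0.10. KL, the co-receptor for FGF23, dropped from 35 ± 6.11 to 9.94 ± 3.29 normalised counts (SD, n = 3), by 1.80 on the log2 scale (SE 0.371, adjusted p = 0.00449). FLRT3, a membrane protein that binds FGF receptors, fell by 0.77 (SE 0.272, adjusted p = 0.0464). Of 11 heparan sulfate proteoglycans, 1 rose and 2 fell in Detroit 562, which is near the 6.16% and 11.7% over all genes, with a median of -0.36 against -0.01. The syndecan SDC4 fell by 0.49 (SE 0.08, adjusted p = 0.00122) and the glypican GPC1 by 0.51 (SE 0.2, adjusted p = 0.0715), while GPC3 was called at 2.11 with 124 ± 180 normalised counts in the treated libraries, a spread above its mean.

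Of 13 genes that build or edit heparan sulfate, HS3ST1 rose and SULF1 fell in Detroit 562, again near the shares over all genes, with a median of 0.00. SULF1, which removes sulfate groups from heparan sulfate, went from 708 ± 285 to 193 ± 107 normalised counts (SD, n = 3) and fell by 1.87 on the log2 scale (SE 0.363, adjusted p = 0.00283). HS3ST1, a sulfotransferase, rose by 0.70 (SE 0.162, adjusted p = 0.00637). None of 14 receptor-proximal signalling genes, FRS2 among them, and none of 5 regulators of FGFR2 splicing was called in any line without the block. Several signalling genes passed the adjusted p but not the minimum fold change in Detroit 562. Among them were CBL at just under 0.40 (adjusted p = 0.0225), PTPN11 at 0.35 (0.0132) and GAB1 at -0.32 (0.0889). ESRP1, which favours the epithelial form of FGFR2, differed by -0.29 in Detroit 562 (SE 0.0595, adjusted p = 0.00361), below the minimum. Of 5 genes for the export of FGF1 and FGF2, ANXA2 rose by 0.45 in Detroit 562 (SE 0.0708, adjusted p = 0.00102).

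Feedback inhibitors and other ERK-dependent genes, which FGF receptors and Met both drive, were called up more often than down. In Detroit 562, 11 of 17 rose and 0 fell, beside 6.16% of all genes that rose and 11.7% that fell, with a median log2 fold change of 0.76 against -0.01 over all genes. They were SPRY2, SPRY4, SPRED1, SPRED3, DUSP4, DUSP5, DUSP6, ETV4, ETV5, FOSL1 and MYC. Of the other 6, EGR1, an immediate early transcription factor, was at -0.47 (adjusted p = 0.632), SPRY1 at -0.16 and IL17RD at -0.15, while ETV1, SPRED2 and CCND1 lay between 0.23 and 0.67. SPRY4 rose by 1.95 (SE 0.413, adjusted p = 0.00433) and DUSP6, the phosphatase of ERK, by 1.53 (SE 0.196, adjusted p = 0.000247). In FaDu DUSP6 alone was called, at 1.44 (SE 0.187, adjusted p = 0.0115), and in SCC-9 none was, with medians of 0.38 and 0.45. With the block, 8 of 17 rose and 0 fell in each of these lines, beside 2% of all genes up and 3.6% down in FaDu and 0.562% up and 1.41% down in SCC-9. In Detroit 562 the block gave 12 up and 1 down, beside 7.13% of all genes up and 14.4% down, and the gene that fell was EGR1, by 0.73 on the log2 scale (adjusted p = 0.000147).

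For 4 members the 3 genes with the most similar log2 levels over the 18 libraries were listed, among 13157 genes with a mean of at least 50 counts. These correlations mostly reflect the differences between the 3 lines and share depth and library. Nearest to FGFR3 were UGT1A9, UGT1A7 and UGT1A8 (each r = 0.996), which overlap at the same locus and share reads, and each of these had a log2 fold change of -1.42 in Detroit 562 (adjusted p = 0.02). Nearest to FGFR2 were B2M (r = 0.995), MPP7 (0.993) and CYP2S1 (0.992), and to FGFR1 B4GALNT3 (0.984), F8A1 (0.984) and GREB1L (0.982). FGF2 was closest to EXOSC8 (0.993), HPRT1 (0.991) and SLC35B1 (0.988).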

How the data were processed

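mRNA sequencing of 18 libraries from Detroit 562, FaDu and SCC-9 was analysed, 3 control and 3 HGF-treated libraries per line. The authors made stranded libraries, trimmed reads with Cutadapt 1.16, aligned them with STAR 2.5.2b to GRCh38.p12 with GENCODE annotation and counted them with bedtools. The deposited values are raw counts per gene extent, introns included, and a read in overlapping genes on its strand was counted for each. Groups came from the sample records.

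Genes were filtered with filterByExpr, which left 15475 of 19901, and edgeR 4.0.16 (R 4.3.3, limma 3.58.1) was run with TMM factors and a quasi-likelihood fit of 6 group means over all libraries. A gene was called at a Benjamini-Hochberg adjusted p below 0.1 over all genes tested if its log2 fold change was also 0.4 or more in size, and interactions by the adjusted p alone. Normalised counts are counts per TMM-scaled library times the mean scaled library size of 39992734. The log2 ratio of FGFR1 to FGFR3 used raw counts plus 0.5 and a two-sided exact permutation test, whose smallest p is 0.1. Levels between genes were compared per kilobase of the principal GENCODE transcript, or of all exons as a variant chosen after seeing the data. The fits were tried on simulated counts with the same spread for every gene and no effect shared by same-numbered libraries. That check therefore cannot speak for the blocked fit.

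Replicate numbers were taken to pair the libraries, although no record states this. Deviations from the group means correlated between same-numbered control and HGF libraries with r from 0.161 to 0.563 across genes. Other combinations gave -0.489 to 0.218, so the ranges overlapped. In Detroit 562, HGF replicate 2 was nearer to control replicate 1 (0.218) than to control replicate 2 (0.161). Blocked results rest on this assumed pairing. The blocked fit had the replicate number within each line as a term. Alternatives were DESeq2 1.42.0 with and without a prior, other scaling factors, filters, thresholds and subsets of libraries. Total counts per library, 35304770 to 44003970, set the precision, and genes with few counts, such as FGF1 and FGF5, are least precise. All 9 members and the genes of the lists called in a line or most abundant were eligible to be named, with the 3 nearest genes of FGFR1, FGFR2, FGFR3, FGF2 and FGFBP1, the last of which are not reported here. Members and lists were chosen with earlier results of these data known. Promoter windows came from RefSeq (GRCh38.p14, 8 of 9 members searched) and gene positions from GENCODE.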

Additional observations from a re-analysis of the deposited data

Results flagged for a closer look

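The response of FGF1 differed between lines by the interaction test, with a log2 difference of 2.47 between Detroit 562 and FaDu (SE 0.517, adjusted p = 0.0865 from edgeR). This call was fragile, as it was lost in 10 of the 12 fits that each left out a library of these lines. FGF1 had the higher count with HGF in 3 of 3 same-numbered comparisons in Detroit 562 and the lower one in 3 of 3 in FaDu. It was among the least abundant members, with 7 to 28 raw counts per library in Detroit 562 and 20 to 55 in FaDu, and control replicate 3 of FaDu, at 24, lay within the treated range.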

How the results depend on the processing

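With the replicate block, 2 members instead of 0 were called in FaDu and 2 instead of 0 in SCC-9, and 6, 2 and 1 members instead of 1, 0 and 0 differed in the response between Detroit 562 and FaDu, Detroit 562 and SCC-9, and FaDu and SCC-9. The block changed no other call of a member and no sign. For the response of Detroit 562 against FaDu, DESeq2 gave 2 members with and without a prior, 0 remained with at least 50 counts in 3 libraries or with these lines alone, and leaving out libraries gave 0 to 3. Leaving out libraries gave 0 to 1 members in FaDu, the 1 being without the libraries numbered 3 (chosen after seeing the data). No member kept its call in the average over the lines at a log2 fold change of at least 1 and adjusted p below 0.05 (0 members). The cause was not tested.

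Signs turned only in members that were not called. With libraries left out, log2 differences ran in FaDu from -0.12 to 0.14 for FGFR4, from -0.02 to 0.17 for FGFRL1, from -0.15 to 0.63 for FGF2 and from -4.04 to 1.69 for FGF5, and in SCC-9 from -0.16 to 0.13 for FGFR4, from -0.20 to 0.37 for FGF2 and from -0.14 to 0.01 for FGFBP1. Of 401 comparisons of a member's response with an alternative, 374 kept sign and call, 5 lost a call, 7 gained one and 15 changed sign. Raw counts as low as the 0 to 7 of FGF5 in FaDu limit what can be seen. A block within lines could not be used between untreated lines, where a block shared by the lines changed no member's call.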
